A study of Rattus norvegicus with 15 samples.

Results

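The genes described here are 10 immediate early genes of the rat retina, *Fos*, *Fosl2*, *Jun*, *Junb*, *Jund*, *Egr1*, *Nr4a1*, *Atf3*, *Arc* and *Crem*. They were taken as every probe set that the array's annotation gives to exactly 1 of these symbols. This gave 21 probe sets of the 31042 that are not controls, and 10 of the 14217 gene symbols. *Crem* had 6 probe sets, *Jun* and *Jund* 3 each, *Fos* and *Fosl2* 2 each, and the other genes 1. *Arc* encodes a protein of synapses, so that 9 of the 10 genes encode transcription factors. A probe set is a group of short oligonucleotides that measure a transcript, and its value is a log2 signal. Each gene is led by its brightest probe set. Levels are compared between samples only, never between genes.

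Retinas came from male adult Long Evans rats that had all spent the night in the dark. The control was darkness until 7 am (0 ZT dark), and other rats stayed in the dark until 10 am (3 ZT dark) or 1 pm (6 ZT dark). At the same clock hours they were collected from rats exposed to 1000 lux for 3 hours (3 ZT light) or 6 hours (6 ZT light). For 6 ZT light the sample titles say 6 hours and the source labels 3, and the titles were followed. Each of the 5 conditions had 3 replicas, measured on 15 arrays. The replicas are not described as separate animals, so that p-values measure the spread between these samples only. Precision is limited by how few arrays there were.

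Immediate early genes are switched on within minutes of a stimulus, without new protein synthesis, and many of their messengers are short-lived. Proteins of the Fos and Jun families pair through a leucine zipper and bind DNA as the factor AP-1. In neurons, calcium and cyclic AMP act on these genes through the factor CREB at the cyclic AMP response element, and kinases of the MAP family act through the serum response factor. In the retina, light is known to induce *Fos* and *Egr1* in several types of neuron.

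The arrays carried RNA of retina by their markers. The mean log2 value of 4 rod genes lay between 14.48 and 14.78 in every array, and that of 7 lens genes varied from 7.41 to 11.32. The median log2 value was 8.28 to 8.32 in arrays of replica 1, 8.58 to 8.68 in replica 2 and 8.75 to 8.81 in replica 3, so that conditions were compared within a replica number. In 2 arrays the 3′ end of the *Actb* transcript exceeded the 5′ end by more than in the other 13, a sign of RNA quality. In replica 1 of 0 ZT dark this log2 difference was 2.10, in replica 2 of 3 ZT light it was 2.40, and in the others it was 0.708 to 1.37. Several values that draw on these arrays are also given without one of them. In whole tissue, fewer cells of a type and less RNA per cell cannot be told apart.

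Promoter sequences from RefSeq (assembly GRCr8) were used for 6 of the 10 genes, with 8 starts in all, and those of *Fos*, *Jun*, *Arc* and *Atf3* were not used here. The 250 bases before each start were searched on both strands for 4 motifs. These were TGACGTCA, the cyclic AMP response element, TGANTCA, the AP-1 site, the core of the serum response element, and GCGNGGGCG, the site of Egr proteins. Over all 33469 promoters of the table, 1.59% held the cyclic AMP response element, 6.34% the AP-1 site, 1.5% the serum response element core and 4.29% the Egr site. The promoters of *Egr1*, of *Nr4a1* and of both *Crem* starts with a cyclic AMP response element are printed because the light values below turn on these genes, with the motifs in capitals and each written 5′ to 3′ on the strand of the gene.
Egr1, chr18:26736828-26737077, plus strand: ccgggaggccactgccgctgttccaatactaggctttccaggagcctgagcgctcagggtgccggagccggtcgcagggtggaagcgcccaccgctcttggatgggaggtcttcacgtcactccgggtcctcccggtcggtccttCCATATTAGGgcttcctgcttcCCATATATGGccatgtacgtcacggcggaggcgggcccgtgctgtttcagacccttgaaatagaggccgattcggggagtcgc
Nr4a1, chr7:134259888-134260137, plus strand: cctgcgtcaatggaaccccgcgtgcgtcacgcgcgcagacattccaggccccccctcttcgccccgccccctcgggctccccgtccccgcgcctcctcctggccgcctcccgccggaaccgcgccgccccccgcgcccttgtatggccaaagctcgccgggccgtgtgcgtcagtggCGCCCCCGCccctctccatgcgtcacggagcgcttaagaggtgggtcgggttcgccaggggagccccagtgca
Crem start 2, chr17:58984547-58984796, plus strand: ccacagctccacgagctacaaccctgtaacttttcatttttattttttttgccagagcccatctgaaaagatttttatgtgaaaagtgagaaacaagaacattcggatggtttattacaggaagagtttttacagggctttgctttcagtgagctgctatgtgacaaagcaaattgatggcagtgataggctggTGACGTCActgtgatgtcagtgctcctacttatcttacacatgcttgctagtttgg
Crem start 3, chr17:58985240-58985489, plus strand: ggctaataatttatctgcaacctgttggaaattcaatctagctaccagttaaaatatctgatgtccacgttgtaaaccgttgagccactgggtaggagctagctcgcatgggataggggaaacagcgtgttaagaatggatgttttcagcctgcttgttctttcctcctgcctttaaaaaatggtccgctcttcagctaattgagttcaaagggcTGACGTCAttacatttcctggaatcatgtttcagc
*Egr1* held 2 cores of the serum response element, from 105 to 96 and from 83 to 74 bases before the start. *Nr4a1* held 1 Egr site, from 73 to 65 bases before the start and on the opposite strand. *Crem* held the cyclic AMP response element at start 2, from 56 to 49 bases before it, and at start 3, from 35 to 28 bases before it, and none of the 4 motifs at start 1. *Jund* held 1 cyclic AMP response element and 3 Egr sites, *Fosl2* 1 Egr site and *Junb* none of the 4. A match is a run of letters and not evidence of binding.

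At 3 ZT the comparison asked how 3 hours of light differed from darkness at the same clock hour. The brightest probe set of *Crem* was higher in light in all 3 replicas and that of *Nr4a1* was lower in all 3. *Fos*, *Egr1*, *Jun* and *Atf3* differed in direction between replicas. The test was limma, which fits a linear model to every probe set at once, here with a term for the replica number. By it 0 of the 21 probe sets passed an adjusted p under 0.05 (0.00322% of all probe sets did, in either direction). At an unadjusted p under 0.05, 3 were higher and 1 was lower (1.96% and 2.64% of all probe sets). The 3 were all probe sets of *Crem*, which are not independent, and the 1 was that of *Nr4a1*. The lowest adjusted p among the 21 was 0.895.

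*Crem* encodes activators and repressors that bind the cyclic AMP response element, among them the inducible repressor ICER. Its brightest probe set (1378925_at) read 11.47, 11.68 and 11.67 (log2, replicas 1, 2 and 3) in 3 ZT light and 10.84, 11.29 and 11.19 in 3 ZT dark. It read 11.18, 11.02 and 11.35 in 0 ZT dark, 11.12, 10.62 and 10.93 in 6 ZT dark and 11.19, 11.13 and 11.39 in 6 ZT light. The 3 values of 3 ZT light lay above the other 12. The light over dark ratios at 3 ZT were 1.55, 1.31 and 1.4, and the log2 difference was 0.50 (SE 0.144, 95% confidence interval 0.18 to 0.82, limma adjusted p = 0.895). Without 3 ZT light replica 2 it was 0.42.

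*Nr4a1* encodes an orphan nuclear receptor that activity induces in neurons. It read 10.01, 9.52 and 9.64 in 3 ZT light. Darkness gave 10.28, 10.36 and 10.04 at 3 ZT and 10.35, 10.53 and 10.21 at 0 ZT. Replica 1 of 3 ZT light lay just below the lowest 3 ZT dark value, and the groups did not overlap. The ratios to 3 ZT dark were 0.830, 0.557 and 0.759, with the lowest in the array of poorer *Actb* balance. The fitted log2 difference was −0.50 (SE 0.144, interval −0.82 to −0.18, limma adjusted p = 0.895), and −0.31 without that array. Values at 6 ZT were 10.35, 10.71 and 9.96 in darkness and 10.63, 10.49 and 10.28 in light, which overlapped.

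Over the 21 probe sets, 1 had all 3 values of 3 ZT light above those of 3 ZT dark (0.390% of all probe sets) and 1 had them below (0.954%), and these were the 2 just described. In each of the 3 replicas 4 were higher (7.71% of all) and 1 was lower (9.43%). The 4 were 3 probe sets of *Crem* and that of *Arc*, which organises receptor traffic at synapses. *Arc* read 8.05, 8.21 and 8.42 in 3 ZT light against 8.003, 8.07 and 8.32 in 3 ZT dark. Its ratios of 1.03, 1.10 and 1.08 were small, and the groups overlapped. The median log2 difference of the 21 was 0.03, with 12 higher and 9 lower, and that of all probe sets was 0.00.

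*Fos*, the founding partner of Jun proteins in AP-1, showed how far 1 array set a value. Its brightest probe set (1375043_at) read 11.36, 13.67 and 11.47 in 3 ZT light and 11.55, 12.36 and 11.40 in 3 ZT dark. Replica 2 of 3 ZT light was the highest of the 15 arrays, and the next, 0 ZT dark replica 1, read 12.46. Light and darkness differed by a log2 value of 0.40 (SE 0.463, interval −0.63 to 1.42), and −0.22 without that array.

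*Egr1*, a zinc finger factor and a classical target of the serum response factor, read 13.97, 14.74 and 12.75 in 3 ZT light and 13.37, 13.87 and 12.92 in 3 ZT dark. Replicas 1 and 2 were higher in light, at 1.51 and 1.84 times darkness, and replica 3 was lower, at 0.888 times. Their log2 difference was 0.43 (SE 0.389, interval −0.43 to 1.29), and 0.17 without 3 ZT light replica 2.

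*Atf3*, a stress-induced partner of Jun proteins, also split by replica, at ratios of 1.41, 0.904 and 0.613 at 3 ZT. It read 9.76, 8.97 and 8.42 in light and 9.27, 9.11 and 9.12 in darkness, so that the light values lay on both sides of the dark ones, with a log2 difference of −0.12 (interval −0.60 to 0.36).

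**Figure D1:**
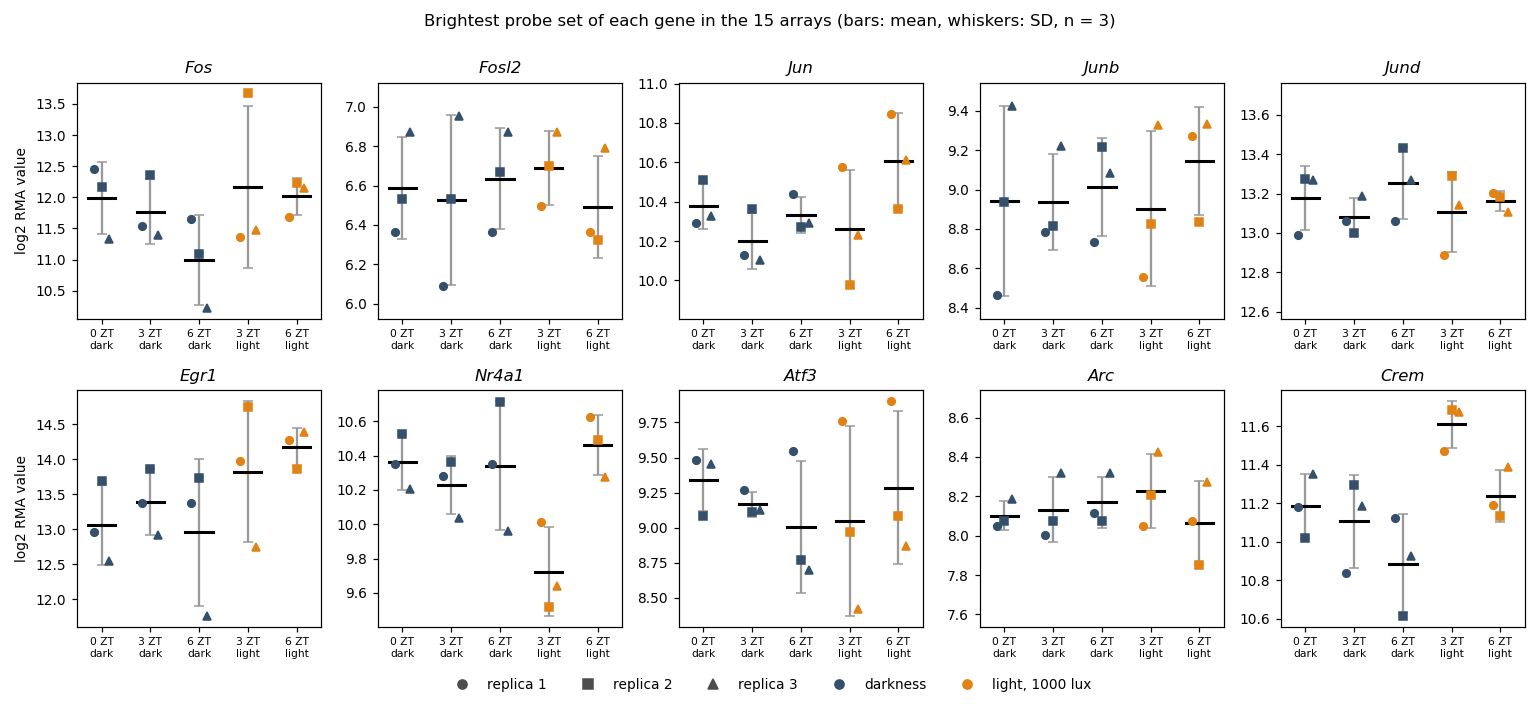
Log2 value (vertical axis) of the brightest probe set of each of the 10 genes in the 5 conditions. Points are arrays with a symbol per replica, black bars are means, grey whiskers are SD (n = 3), dark blue is darkness and orange is light; the 3 values of *Crem* in 3 ZT light lie above its other 12, and the 3 of *Egr1* in 6 ZT light lie above those of 6 ZT dark and of 0 ZT dark.

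At 6 ZT, where 6 hours of light were set against darkness at the same hour, the brightest probe sets of *Egr1*, *Fos* and *Crem* were higher in light in all 3 replicas. Their values in light and in darkness did not overlap, which held for 3 of the 21 probe sets upward (2.33% of all probe sets) and for 0 downward (1.19%). None of the 21 passed limma at an adjusted p under 0.05 (0.0% of all probe sets passed), with 4 higher and 1 lower at an unadjusted p under 0.05 (5.56% and 2.97%). The 4 higher were probe sets of *Egr1*, *Fos* and *Crem*. The ratios of the brightest *Crem* probe set were 1.05, 1.43 and 1.38 (log2 difference 0.35, SE 0.144, limma adjusted p = 0.562). The lowest adjusted p among the 21 was 0.518, that of *Egr1*.

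*Egr1* read 14.27, 13.86 and 14.38 in 6 ZT light against 13.37, 13.74 and 11.76 in 6 ZT dark. The lowest light value stood above the highest dark value. Replica 3 of 6 ZT dark was the lowest of the 15 arrays. The ratios were 1.86, 1.09 and 6.14, with a mean of 3.03 ± 2.72 (SD, n = 3). In the fit the log2 difference was 1.21 (SE 0.389, interval 0.35 to 2.08, limma adjusted p = 0.518), and it was 0.70 without replica 3 of 6 ZT light and 0.85 without replica 3 of 6 ZT dark.

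*Fos* read 11.68, 12.24 and 12.14 in 6 ZT light and 11.65, 11.10 and 10.22 in 6 ZT dark. The groups met at replica 1, whose values in light and darkness were nearly equal. The ratios were 1.02, 2.20 and 3.78, with a mean of 2.33 ± 1.39 (SD, n = 3). The fit gave a log2 difference of 1.03 (SE 0.463, interval 0.00 to 2.05, limma adjusted p = 0.585). Without replica 3 of 6 ZT light it was 0.66. The dimmer *Fos* probe set (1371283_at) stayed between 6.55 and 7.204 in all arrays, with ratios of 1, 0.80 and 0.885 at 6 ZT.

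With limma's array quality weights, which let arrays count by their spread, 5 of the 21 probe sets passed at 6 ZT. These were *Egr1* (log2 difference 2.00, adjusted p = 0.0151), *Fos* (1.36, adjusted p = 0.0327), 2 dimmer probe sets of *Crem*, and 1 dim probe set of *Jund* that was lower in light. In that fit 6 ZT light replica 3 had a weight of 7.45 against 0.488 and 0.464 for the other 6 ZT light arrays, and 2311 of all probe sets passed. In this fit 1 array thus carried most of the weight of its condition.

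The Jun proteins are the partners of Fos in AP-1, with *Jun* and *Junb* inducible and *Jund* present in most resting cells. The brightest probe set of *Jun* read 10.85, 10.37 and 10.61 in 6 ZT light and 10.44, 10.27 and 10.29 in 6 ZT dark, and the groups overlapped. It was higher in light by 1.33, 1.07 and 1.25 times, and the next probe set of *Jun* by 1.15, 1.28 and 1.06 times. The log2 difference of the former was 0.27 (SE 0.148, interval −0.05 to 0.60, limma adjusted p = 0.615). The remaining *Jun* probe set split, at 1.36, 0.903 and 0.927 times.

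*Junb* read 9.27, 8.83 and 9.34 in 6 ZT light and 8.73, 9.22 and 9.08 in 6 ZT dark, with ratios of 1.45, 0.767 and 1.19. Replica 2 went against the others. The brightest probe set of *Jund* stayed between 12.89 and 13.43 in all 15 arrays. Its log2 difference was −0.09 at 6 ZT (interval −0.32 to 0.13) and 0.03 at 3 ZT (interval −0.20 to 0.25). The probe set of *Jund* next in brightness ranged from 6.83 to 9.32. Its ratios at 3 ZT were 0.788, 0.373 and 2.10, and their SD of 0.903 was the largest among the 21 in that comparison.

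*Atf3* was higher in 6 ZT light in each replica, by 1.28, 1.24 and 1.13 times, and read 9.90, 9.08 and 8.87 against 9.54, 8.77 and 8.70. Replica 1 stood above the others in both conditions by more than light stood above darkness. The log2 difference was 0.28 (SE 0.217, interval −0.20 to 0.76, limma adjusted p = 0.706). *Fosl2*, a relative of *Fos*, read 6.36, 6.33 and 6.79 in light and 6.36, 6.67 and 6.87 in darkness, and the value of replica 1 was the same in both. *Arc* was the member lower in all 3 replicas, at ratios of 0.973, 0.857 and 0.968.

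Over the 21 probe sets, 9 were higher in light in all 3 replicas at 6 ZT (17.2% of all probe sets) and 1 was lower (13.5%). The 9 came from 5 genes, with 4 from *Crem*, 2 from *Jun* and 1 each from *Fos*, *Egr1* and *Atf3*. Probe sets of 1 gene share its transcript and are not independent. The median log2 difference was 0.12, with 14 higher and 7 lower, and that of all probe sets was −0.01.

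The light effects at 6 and at 3 ZT were also compared with each other, and 0 of the 21 probe sets passed (0.0% of all, with 1 higher and 1 lower at an unadjusted p under 0.05 against 4.14% and 1.81%). That of *Nr4a1* was 0.63 log2 units higher at 6 ZT (SE 0.204, interval 0.17 to 1.08, limma adjusted p = 0.776). That of *Egr1* was 0.78 higher (interval −0.44 to 2.00) and that of *Fos* 0.63 higher (interval −0.82 to 2.08). *Arc*, higher in light at 3 ZT and lower at 6 ZT in each replica, had a difference of −0.20 (interval −0.44 to 0.05, limma adjusted p = 0.776). Its values spanned at most 0.36 log2 units within a replica number, and 7 of the 15 arrays shared an exact value.

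**Figure D2:**
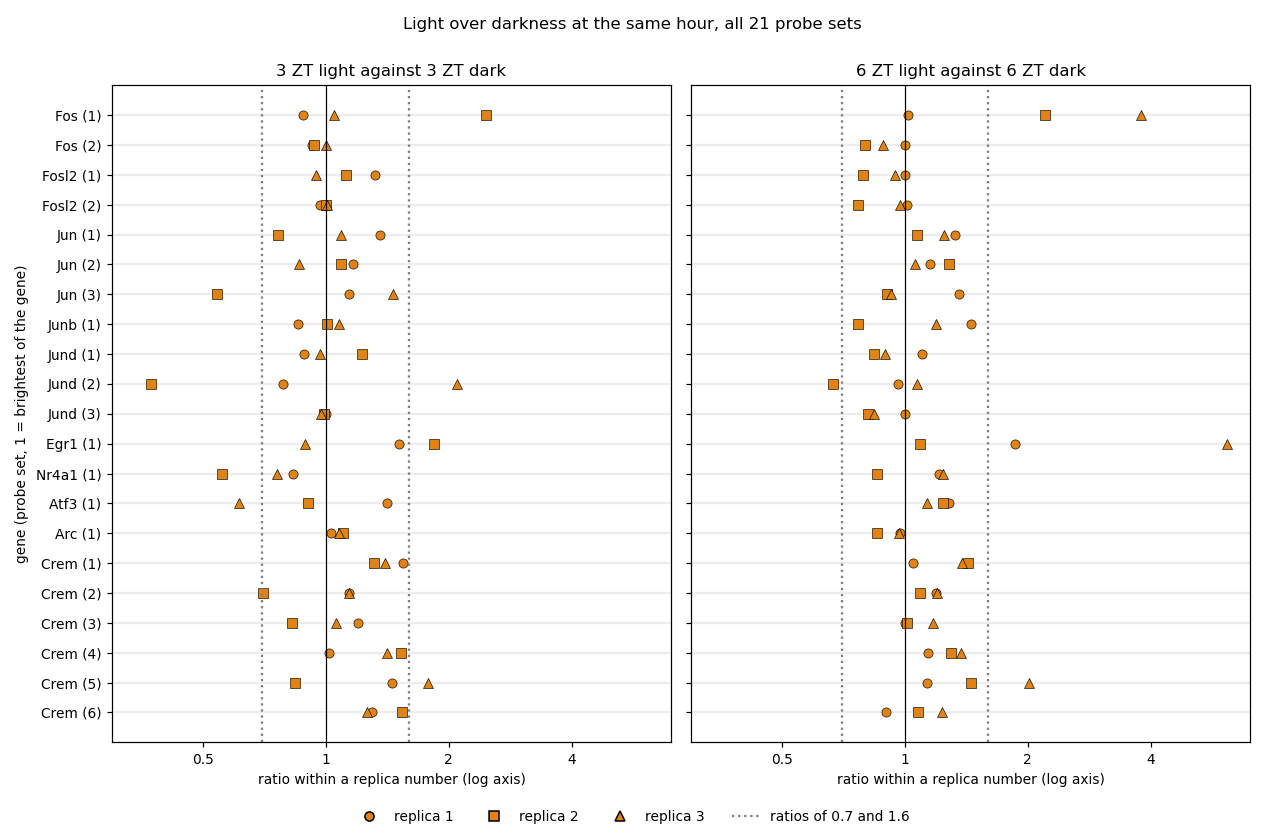
Ratio of light to darkness within a replica number (horizontal log axis, no unit) for the 21 probe sets at 3 ZT (left) and at 6 ZT (right). Each symbol is a replica, rows are probe sets numbered by brightness within the gene, and dotted lines mark ratios of 0.7 and 1.6; no row has its 3 symbols beyond a dotted line, and the largest ratio is that of *Egr1* in replica 3 at 6 ZT (6.14).

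The 6 probe sets of *Crem* did not move alike. Against 3 ZT dark, 3 were higher in light in every replica. These were 1378925_at, 1393550_at (1.02, 1.53 and 1.41 times) and the dim 1396545_at (1.30, 1.54 and 1.26 times, with 13.8% of all probe sets dimmer). The other 3 were lower in replica 2 and higher in replicas 1 and 3. At 6 ZT, 4 were higher in every replica. The largest ratios there were those of 1369737_at, at 1.13, 1.45 and 2.01, with a log2 difference of 0.57 (limma adjusted p = 0.524). Over the 15 arrays, after the mean of each replica number was subtracted, the correlation between these probe sets ran from −0.05 to 0.85. The highest was between 1378925_at and 1393550_at and the lowest between 1369738_s_at and 1396545_at.

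**Figure D3:**
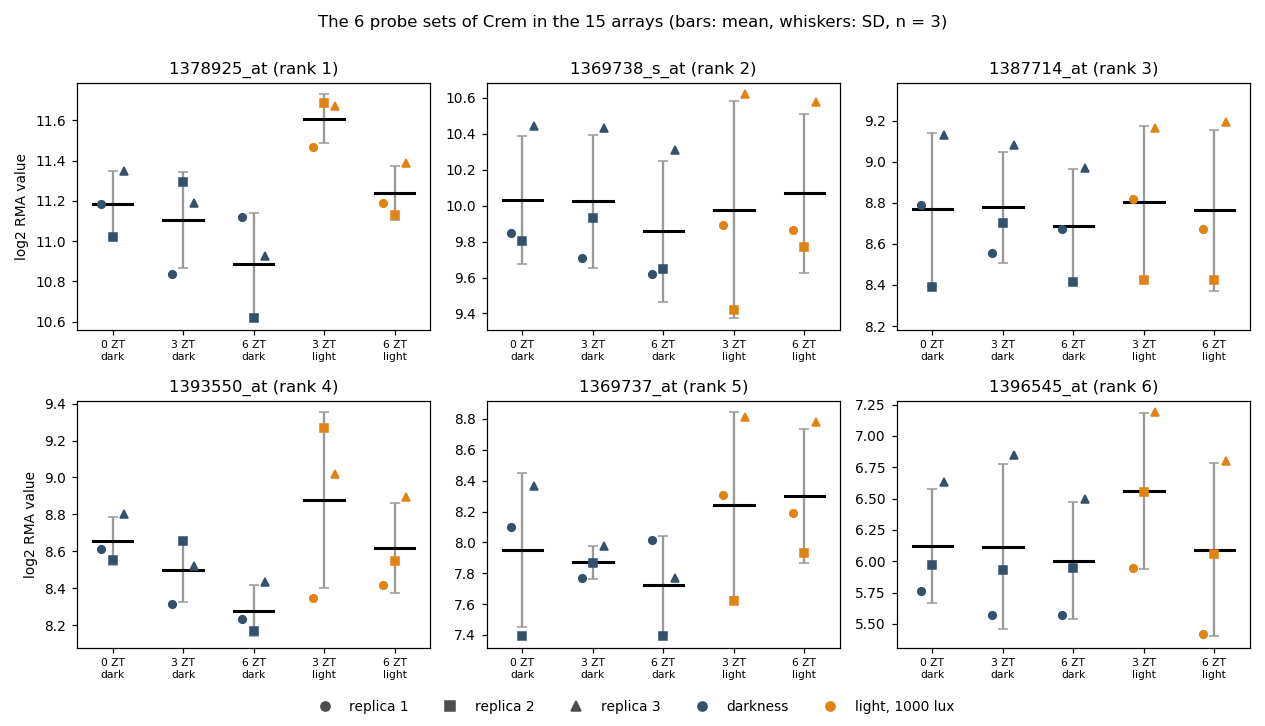
Log2 value (vertical axis) of the 6 probe sets of *Crem*, in order of brightness, in the 5 conditions. Points are arrays with a symbol per replica, bars are means and whiskers SD (n = 3), orange is light. In 1378925_at the 3 values of 3 ZT light lie above the other 12, though the lowest, 11.47, is close to the next array (11.39, 6 ZT light replica 3). In 1369738_s_at replica 2 of 3 ZT light is the lowest of the 15 arrays.

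Against the control at 0 ZT, the question was how each condition stood relative to the start of the day. All these comparisons share the same 3 control arrays, and the light comparisons therefore are not independent of the dark ones. By limma no member reached an adjusted p under 0.05 whether in 3 ZT light (0.00322% of all probe sets did), 6 ZT light (0.0%), 3 ZT dark (0.0%) or 6 ZT dark (0.0%). At an unadjusted p under 0.05, 2 were higher and 1 lower in 3 ZT light (3.25% and 4.43% of all), the 2 being of *Crem*. In 6 ZT light 1 was higher and 0 lower (3.92% and 2.26%). For 3 ZT dark 0 were higher or lower (0.477% and 0.776%), and for 6 ZT dark 1 was higher and 2 lower (3.47% and 5.26%). Without 0 ZT dark replica 1, which had a large *Actb* difference, the counts in 3 ZT light stayed at 2 and 1 (1183 and 1692 of all probe sets). They became 0 and 0 in 6 ZT light (1078 and 729 of all) and 0 and 0 in 6 ZT dark (587 and 1156 of all). Without 3 ZT light replica 2, which had the largest *Actb* difference, the counts in 3 ZT light were 1 and 2 (900 and 977 of all). Without both arrays they were 1 and 1 (899 and 914 of all).

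*Egr1* was higher than the control in each replica of 3 ZT light (2.02, 2.09 and 1.15 times), of 6 ZT light (2.49, 1.14 and 3.58 times) and of 3 ZT dark (1.34, 1.14 and 1.30 times). The control read 12.96, 13.68 and 12.54. All 3 values of 6 ZT light lay above these, as for 1 of the 21 probe sets (1.74% of all). Its log2 difference was 1.11 in 6 ZT light (SE 0.389, interval 0.25 to 1.97, limma adjusted p = 0.667), 0.76 in 3 ZT light and 0.33 in 3 ZT dark. In 6 ZT dark it was −0.10 (interval −0.96 to 0.76). Without replica 3 of 6 ZT light the difference was 0.60 in that condition, and without 3 ZT light replica 2 it was 0.49 in 3 ZT light. In order of the mean, *Egr1* was lowest in 6 ZT dark (12.96 ± 1.05, SD, n = 3), then 0 ZT dark (13.06 ± 0.576), 3 ZT dark (13.39 ± 0.474), 3 ZT light (13.82 ± 1.01) and 6 ZT light (14.17 ± 0.273). No neighbours in this order differed beyond their spread.

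*Fos* stood lowest in 6 ZT dark, at 10.99 ± 0.721, against 11.99 ± 0.584 in the control. The ratios of 6 ZT dark to the control were 0.572, 0.475 and 0.463. This probe set was thereby the only one of the 21 that lay above 1.6 or below 0.7 times the reference in all 3 replicas, in any of the 6 comparisons of conditions. Of all probe sets 0.287% lay below 0.7 and 0.0644% above 1.6 in 6 ZT dark against the control, 0.0161% and 0.0% in 3 ZT dark, 0.0741% and 0.058% in 3 ZT light, and 0.0709% and 0.0709% in 6 ZT light. In light against darkness these shares were 0.0322% below and 0.0161% above at 3 ZT and 0.0387% below and 0.0548% above at 6 ZT. Its log2 difference was −0.997 (SE 0.463, interval −2.02 to 0.03, limma adjusted p = 0.580), and −0.67 without 0 ZT dark replica 1. The other *Fos* probe set was dim (23.1% of all probe sets were dimmer) and spanned at most 0.42 log2 units within a replica number. It went the opposite way in each replica, at 1.10, 1.25 and 1.14 times the control (log2 difference 0.22, SE 0.0805, limma adjusted p = 0.533). With ratios taken to the mean of the control arrays, without the pairing, 0 of the 21 lay below 0.7 in 6 ZT dark. The values of the groups overlapped, since the control of replica 3 read 11.34 and 6 ZT dark of replica 1 read 11.65. In 6 ZT light *Fos* stood at 12.02 ± 0.297, with ratios to the control of 0.583, 1.05 and 1.75. The mean of 6 ZT light was near that of the control, though replicas 1 and 3 differed from their controls in opposite directions. In 6 ZT dark the value was below the control of each replica number. In 3 ZT dark the ratios were 0.532, 1.14 and 1.05.

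*Crem* was lower than the control in 6 ZT dark in each replica with 5 of its 6 probe sets. Those of 1393550_at were 0.768, 0.765 and 0.774, and all 3 of its 6 ZT dark values lay below the control, as for 1 of the 21 probe sets (3.69% of all). It read 8.23, 8.17 and 8.43 in 6 ZT dark and 8.61, 8.55 and 8.80 in 0 ZT dark. The brightest probe set had ratios of 0.958, 0.756 and 0.745 and a log2 difference of −0.30 (interval −0.62 to 0.02, limma adjusted p = 0.595). In 6 ZT light it was near the control, at 1.01, 1.08 and 1.03 times (log2 difference 0.05, interval −0.27 to 0.37). In 3 ZT light it was higher than the control by 1.22, 1.59 and 1.25 times (log2 difference 0.43, limma adjusted p = 0.576, and 0.34 without 3 ZT light replica 2), without overlap, which held for 1 of the 21 (1.29% of all).

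*Nr4a1* was lower than the control in 3 ZT light, at ratios of 0.791, 0.497 and 0.675, and these groups did not overlap either, as for 1 of the 21 (1.21% of all). This log2 difference was −0.64 (SE 0.144, interval −0.96 to −0.32, limma adjusted p = 0.364), the lowest adjusted p of the 21 probe sets in any comparison. Without 3 ZT light replica 2 it was −0.45. In order of the mean, *Nr4a1* was at 9.72 ± 0.258 in 3 ZT light, and the other 4 conditions lay between 10.23 ± 0.169 and 10.46 ± 0.176, with neighbouring means within their spread.

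Counted by direction, 5 of the 21 probe sets were higher and 2 lower than the control in all 3 replicas of 3 ZT light (11.8% and 11.0% of all), 3 higher and 0 lower in 6 ZT light (12.3% and 9.38%), 1 higher and 3 lower in 3 ZT dark (7.78% and 8.52%), and 4 higher and 7 lower in 6 ZT dark (15.5% and 15.1%). In 3 ZT light the 5 higher were that of *Egr1* and otherwise probe sets of *Crem*. The 7 of 6 ZT dark were 5 of *Crem* and 1 each of *Fos* and *Jun*. The 4 higher ones were 2 of *Jund*, 1 of *Fos* (1371283_at) and 1 of *Jun* (1374404_at, at 1.22, 1.02 and 1.18 times). *Fos* and *Jun* thus had probe sets in both directions, though 1371283_at was dim, with 23.1% of all probe sets dimmer. The 3 of 3 ZT dark were 2 of *Jun* and that of *Nr4a1*. No member had all 3 values of 3 or of 6 ZT dark above those of the control (0.309% and 0.673% of all), and in 3 ZT dark none had them below (1.07%).

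**Figure D4:**
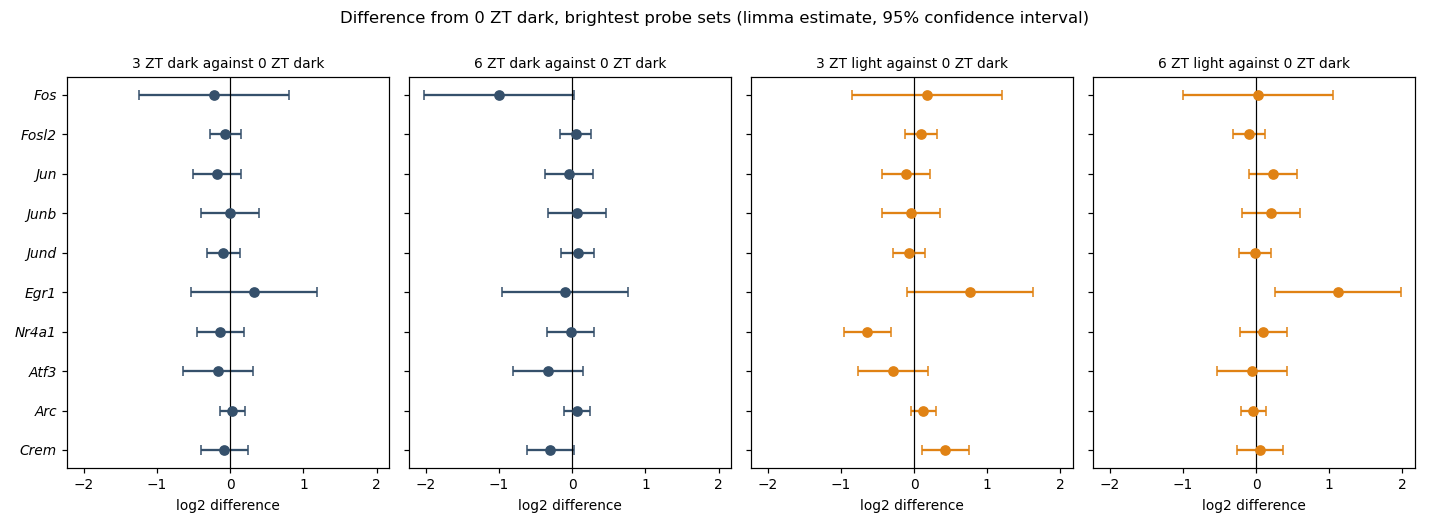
Log2 difference from 0 ZT dark (horizontal axis) of the brightest probe set of each gene, in 3 and 6 ZT dark (blue) and 3 and 6 ZT light (orange). Points are limma estimates and bars 95% confidence intervals. The bars of *Nr4a1* and *Crem* in 3 ZT light and of *Egr1* in 6 ZT light do not reach 0, before adjustment over all probe sets. Without 0 ZT dark replica 1, 0 of the 21 probe sets had an unadjusted limma p under 0.05 in 6 ZT light (1078 higher and 729 lower of all).

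Markers of other cell types differed between the same groups. Bipolar cell genes (3 of 4 measured) had a mean log2 value of 10.72 to 10.996 in 3 ZT light against 11.46 to 11.64 in 3 ZT dark, with all 3 lower in light. All 4 cone genes and all 3 Müller glia genes were also lower there, with median log2 differences of −0.22 and −0.21. Without 3 ZT light replica 2, 1 cone gene was higher and 3 lower (median −0.18). The 3 Müller glia and 3 bipolar cell genes stayed lower, with medians of −0.13 and −0.55. At 6 ZT all 7 lens genes were lower in light, with a mean log2 value of 7.41 to 10.19 against 10.08 to 11.32 in darkness. The lens value of 7.41, the lowest of the 15 arrays, was that of 6 ZT light replica 3, which also held the highest *Egr1* value of its condition. All 5 ganglion cell genes were lower in 6 ZT light, with a median log2 difference of −0.46 from 6 ZT dark and −0.31 from 0 ZT dark. Their mean log2 values were 10.82, 11.68 and 11.89 in 6 ZT light and 11.82, 11.87 and 11.99 in 6 ZT dark. The gap to 6 ZT dark was thus widest in replica 1. All 3 Müller glia genes were higher in light at 6 ZT (0.21), opposite to 3 ZT. Pigment cell genes (6 of 6 measured) had a mean of 10.70 to 11.33 in 6 ZT light and 10.22 to 10.97 in 6 ZT dark. At 3 ZT all 7 lens genes were higher in light, by a median of 0.92 log2 units, and in darkness all 7 were higher at 6 ZT than at 0 ZT, by a median of 1.49. None of these genes passed the test, as at most 0.00322% of all probe sets did in a comparison. A value on this scale cannot show whether a gene is absent. The part of these markers in the values of the 10 genes was not tested.

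The brightest probe sets of the 10 genes were set against each other over the 15 arrays, after subtracting the mean of each replica number. These correlations are a description, since the arrays share conditions and RNA quality. Of 45 pairs, 6 had an r above 0.5 and 2 below −0.5. *Fos* and *Crem* had an r of 0.735 and *Fos* and *Egr1* of 0.565, which were 0.593 and 0.464 without 3 ZT light replica 2. *Junb* and *Jund* had an r of 0.627, *Fosl2* and *Arc* of 0.626 and *Jun* and *Nr4a1* of 0.566, the last being 0.368 without that array. *Nr4a1* ran against *Crem* (−0.683) and against *Arc* (−0.571), and these values were −0.466 and −0.296 without that array.

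**Figure D5:**
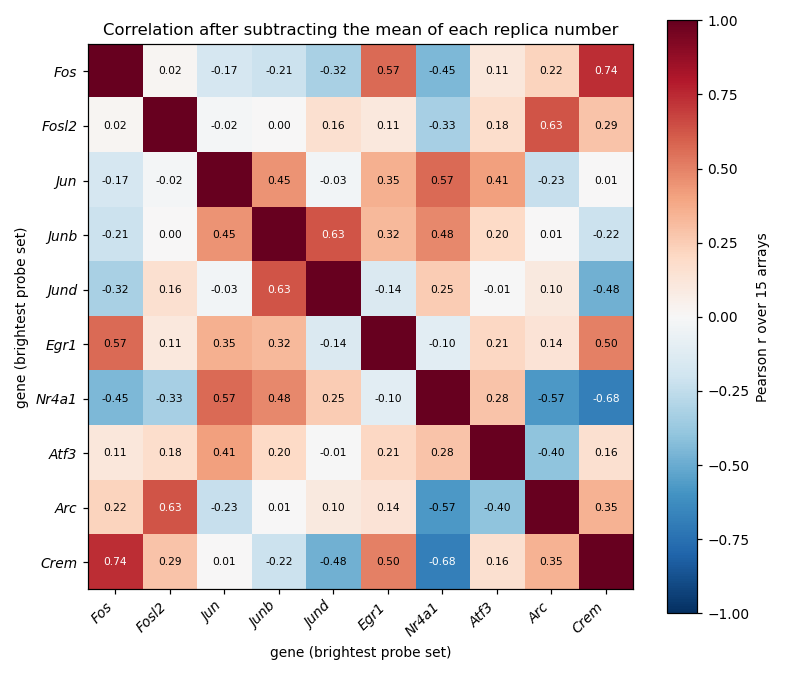
Pearson correlation (colour, from −1 in blue to 1 in red) between the brightest probe sets of the 10 genes over 15 arrays, after subtracting the mean of each replica number. The highest value off the diagonal is that of *Fos* with *Crem* (0.735) and the lowest that of *Nr4a1* with *Crem* (−0.683), while without 3 ZT light replica 2 they are those of *Junb* with *Jund* (0.664) and of *Jund* with *Crem* (−0.697).

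Over the whole array, the 5 named genes most like *Fos* in this measure were *Cyp7b1* (r = 0.908), *Zfp136* (0.894), *Crem* (1393550_at, 0.892), *Gk* (0.881) and *Pot1* (0.880). Without 3 ZT light replica 2 these values lay between 0.803 and 0.847. Those most like *Egr1* were *Arf2* (0.883), *Anapc7* (0.843), *Dusp18* (0.808), *Parg* (0.803) and *Ptpn14* (0.80).

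Further genes of the pathway were described with their brightest probe sets, and 0 of them passed the test in any comparison. Of all probe sets at most 0.00322% passed in a comparison. Of 33 other inducible genes, 30 were measured. In light against darkness 14 were higher and 16 lower at 3 ZT, and 18 were higher and 12 lower at 6 ZT, with median log2 differences of −0.01 and 0.04. *Fosb*, a close relative of *Fos*, was 3.45, 1.10 and 1.06 times darkness at 6 ZT, so that its value rested on replica 1. *Klf10*, a zinc finger factor, was at 1.61, 1.15 and 1.08 times (log2 difference 0.34, limma adjusted p = 0.518). At 3 ZT *Klf2* was lower in each replica, at 0.862, 0.773 and 0.949 times, and *Ier3* was at 0.788, 0.544 and 1.03 times (log2 difference −0.39, and −0.15 without 3 ZT light replica 2).

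Of 26 genes that act upstream of immediate early genes, 22 were measured. At 6 ZT 12 were higher in light than in darkness and 10 lower (median 0.02), and against the control 20 were higher and 2 lower (median 0.11, with −0.01 over all probe sets). *Srf*, the serum response factor, was at 1.28, 1.15 and 1.13 times darkness at 6 ZT (log2 difference 0.24, SE 0.0678, limma adjusted p = 0.508). *Elk4*, which forms a complex with it at the serum response element, was at 1.38, 1.47 and 1.31 times (0.47, limma adjusted p = 0.518), and *Elk3*, of the same family, was at 1, 0.814 and 0.787 times. At 3 ZT *Srf* stood at 0.927, 1.01 and 0.902 times darkness. *Mapk14*, the stress kinase p38 alpha, was at 0.774, 0.756 and 0.857 times at 3 ZT (log2 difference −0.33, and −0.21 without 3 ZT light replica 2). In that comparison 10 genes of this list were higher and 12 lower, and 6 and 16 without that array.

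Of 17 other leucine zipper factors, 13 were measured. At 3 ZT 3 were higher in light and 10 lower (median −0.13), and at 6 ZT 5 were higher and 8 lower (median −0.05). *Mafg* was at 0.801, 0.829 and 0.848 times darkness at 3 ZT. *Ddit3* and *Atf4*, factors of the integrated stress response, were at 0.386 and 0.498 times in replica 2 and between 0.950 and 1.02 times in the others, so that their values rested on the array with the largest *Actb* difference. Their log2 differences were −0.50 and −0.34, and −0.11 and −0.016 without that array, and the list then had 5 higher and 8 lower (median −0.02). *Batf* was at 1, 1.28 and 1.05 times.

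Some of the 21 probe sets were dim, varied little or repeated values. Exactly equal values occurred between arrays of 1 replica number in 12 of them. Of the 21, 5 lay under the 25th percentile of the mean values of all probe sets, and 11 spanned less than 0.75 log2 units within each replica number. Equal values or a small span do not by themselves mean a poor measurement. *Egr1* was among the 12, with 2 of 15 arrays. The brightest probe set of *Jund* spanned at most 0.432 log2 units, and 97.0% of all probe sets were dimmer. Standard errors of the log2 differences between conditions ran from 0.0696 to 0.536.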

How the data were processed

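Retinal RNA was hybridised to Affymetrix rat arrays. The deposited log2 values are the authors' output of Robust Multi-array Average, run on the scans. It subtracts background, quantile normalizes arrays and gives 1 value per probe set. Software was not given in the sources used here. The 15 arrays do not share a median, so the normalization may have run per replica number. The values were used as deposited. Of 31099 probe sets, 57 controls were left out. Gene names came from the array annotation and RefSeq (GRCr8), with 20826 probe sets of 1 symbol, 436 of several and 9780 of none. The labels and the methods differ on the RNA input and the extraction reagent.

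Differences were estimated with limma 3.58.1 (R 4.3.3) over the 15 arrays, with terms for condition and for replica number and Benjamini-Hochberg adjustment over 31042 probe sets (threshold 0.05). The fit was tested on simulated data. The replica number was taken as a block because the methods form ratios within it. In 18 of 18 checks deviations from the condition means correlated best between arrays of 1 number (r from 0.289 to 0.797), which may stem from processing. These checks reuse the same 15 arrays and are not independent. Ratios within a number were also counted above 1.6 or below 0.7 in all 3 replicas. Genes named are the 10 members, the 5 most correlated with *Fos* and with *Egr1*, and up to 4 per list with the smallest p. The members and lists were chosen with earlier results of these data known. Alternatives were no block, array quality weights (statmod 1.5.0), dim probe sets left out, quantile normalization, fits of only the conditions compared, other probe sets, other ratios, each array left out, and both arrays of largest *Actb* difference left out. Figures were drawn with matplotlib 3.10.9.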

Additional observations from a re-analysis of the deposited data

How the results depend on the processing

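Over 26 log2 differences of single genes and 577 alternatives, 550 kept their direction and side of the threshold, 24 changed direction and 3 came to pass it. Without the replicate block 0 of the 21 probe sets passed in any comparison. With the pairing by replica number dropped from the ratios, 2 of the 21 (24 of all 31042) lay above 1.6 in 6 ZT light against 6 ZT dark and 1 (19 of all) in 6 ZT light against 0 ZT dark, and 0 (61 of all) lay below 0.7 in 6 ZT dark against 0 ZT dark. With ratios of 1.5 and 0.8, 1 (158 of all) lay below in 3 ZT light and 2 (377 of all) in 6 ZT dark against 0 ZT dark. Array quality weights passed 5 of the 21 in 6 ZT light against 6 ZT dark and 1 against 0 ZT dark (*Egr1*, 1.65, limma adjusted p = 0.0431), with 2311 and 676 of all probe sets against 0 without weights. Without 3 ZT light replica 2, 38 of all passed in 6 ZT light against 0 ZT dark and no member did. The cause was not tested.

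In 3 ZT light against 3 ZT dark, *Fos* was at −0.28 with weights and −0.19 without both arrays of largest *Actb* difference, and *Jund* was at −0.020 and −0.046. Other probe sets of the same gene changed direction there for *Fos* (−0.069), *Fosl2* (−0.013), *Jun* (−0.049), *Jund* (−0.23 and −0.016) and *Crem* (−0.046, and −0.054 against 0 ZT dark). The dimmer *Fos* probe set stood at −0.17 in 6 ZT light against 6 ZT dark and at 0.22 in 6 ZT dark against 0 ZT dark. Leaving out each array in turn gave −0.22 to 0.87 for *Fos*, −0.071 to 0.20 for *Jun*, −0.12 to 0.039 for *Junb*, −0.075 to 0.090 for *Jund* and −0.32 to 0.12 for *Atf3* at 3 ZT, and −0.085 to 0.30 for *Junb* at 6 ZT. Leaving out dim probe sets kept 16 of the 21.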
